A study of Mus musculus with 8 samples.

Results

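Cytosolic ribosomal protein genes encode the protein components of the 40S and 60S ribosomal subunits, which together translate messenger RNA. Their messages are among the most abundant in every nucleated cell, and many begin with a 5′ terminal oligopyrimidine tract, a run of C and T bases at the start of transcription through which nutrient signalling by mTORC1 and the RNA-binding protein Larp1 controls their translation and stability. Lymphocytes are known to devote a large share of their messages to these genes, and naive T cells leave quiescence by making more ribosomes. Members were taken by symbol: Rpl and Rps names followed by a number, with the paralogs ending in l, plus Rpsa, Rplp0, Rplp1 and Rplp2, and without pseudogenes named with -ps or the Rps6k kinases. The symbols gave 84 of the 32285 genes in the files, 32 of the 40S subunit and 52 of the 60S subunit. GENCODE M21 lists each of them as protein-coding, on GRCm38.

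The cells were the stromal vascular fraction, the cells of fat other than adipocytes, of inguinal white adipose tissue (iWAT) of wild-type C57BL/6 mice (the study's text gives C57BL/6J). The labels give an age of 8 weeks, while the study describes adult males kept on the feeding regimens for months. In the Ad-Lib group (4 libraries, numbered 1, 3, 5 and 7) food was always available, and in the TAN group (4 libraries, numbered 2, 4, 6 and 8) it was given in a pair of short windows during the night. Each library was 10x Genomics 3′ single-cell RNA-seq with molecular identifiers (UMIs), and the study treats the libraries as animal replicates. The p-values below for TAN against Ad-Lib within a lineage measure the spread between libraries. Those of tests with library as a block measure the scatter left within libraries.

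To show what the sequence feature looks like, the 40 bases before and the 20 bases from the annotated start of a few members are given from RefSeq promoters (GRCm38.p6), 5′ to 3′ on the coding strand, with the tract in capitals. A tract was a C followed by at least 7 bases that are each C or T, beginning within 20 bases either side of the start on the coding strand. Rps27 and Rpl35 were chosen as members with a tract at the start, of 9 and 18 bases, Rpl22l1 and Rps26 because they rose in the Cd3e gate described below, and Rpl36a and Rpl39l as genes of the results with no match.
Rps27 (chr3:90213629-90213688, minus strand): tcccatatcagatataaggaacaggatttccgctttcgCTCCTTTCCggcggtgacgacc
Rpl35 (chr2:39005112-39005171, minus strand): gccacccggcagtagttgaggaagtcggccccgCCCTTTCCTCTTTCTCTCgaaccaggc
Rpl22l1 (chr3:28805468-28805527, plus strand): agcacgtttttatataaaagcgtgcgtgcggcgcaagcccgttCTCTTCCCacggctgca
Rps26 (chr10:128626487-128626546, minus strand): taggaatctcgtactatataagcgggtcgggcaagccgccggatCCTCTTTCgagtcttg
Rpl36a (chrX:134585614-134585673, plus strand): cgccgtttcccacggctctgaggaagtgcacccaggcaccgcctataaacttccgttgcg
Rpl39l (chr16:10170188-10170247, plus strand): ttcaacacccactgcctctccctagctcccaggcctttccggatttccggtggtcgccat
Of the 64 members with a RefSeq promoter, 31 (48.4%) held such a tract, against 15.7% of all 27025 genes with one. A match describes the letters, and no match says only that they are not in this window.

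Cells were sorted into 5 lineage gates by single markers: a cell entered a gate with at least 1 UMI of that marker and 0 UMIs of the other 4. Pdgfra marks adipose progenitors and fibroblasts, Pecam1 endothelial cells, C1qa macrophages, Cd3e T cells and Cd79a B cells. Of 44427 barcodes, 36370 passed the cell filters and 24303 fell in 1 gate, 7682 in the Pdgfra gate, 8084 in the Pecam1 gate, 4535 in the C1qa gate, 2147 in the Cd3e gate and 1855 in the Cd79a gate. Each gate held its own 6-gene marker list at a higher summed level than the lists of the other gates, from 3027 to 4045 CPM (a gene's UMIs scaled to the usual common total of a gate's UMIs) for T cell markers in the Cd3e gate and from 22076 to 31332 CPM for fibroblast markers in the Pdgfra gate. The Cd79a gate was uneven, with 21 cells in Ad-Lib 1 and 20 in Ad-Lib 7 against 508 in TAN 6, and in Ad-Lib 1 its cells had 77780 CPM of the immunoglobulin gene Ighm. Libraries held 25320800 to 37140950 UMIs, as deposited, and pairs of libraries shared between 5 and 16 barcodes.

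Ribosomal protein messages took a far larger share of the UMIs in lymphocytes than in the other cells. Averaged over the 8 libraries, the share was 27.7% ± 5.64 (SD, n = 8) in the Cd3e gate and 21.9% ± 5.95 (SD, n = 8) in the Cd79a gate. It was 11.9% ± 0.71 (SD, n = 8) in the Pdgfra gate, 11.2% ± 1.23 (SD, n = 8) in the C1qa gate and 10.3% ± 1.53 (SD, n = 8) in the Pecam1 gate. The Cd3e gate lay above the Pdgfra, Pecam1 and C1qa gates in 8 of 8 libraries and the Cd79a gate in 7 of 8, the exception being Ad-Lib 1 at 9.90%. The Pecam1 gate lay below the Pdgfra gate in 6 of 8 libraries. Neighbours in this order (Cd3e and Cd79a, Cd79a and Pdgfra, Pdgfra and C1qa, C1qa and Pecam1) overlapped in range. Cells differed in depth, with library medians of UMIs per cell that averaged 10061 in the Pdgfra gate, 5435 in the C1qa gate, 5348 in the Cd3e gate, 4916 in the Cd79a gate and 4075 in the Pecam1 gate. The Cd79a mean includes 14789 in Ad-Lib 1, where the other 7 libraries had 3080 to 3840. In cells of 2000 to 10000 UMIs only, the share was 27.8% in the Cd3e gate, 25.2% in the Cd79a gate and 11.8% in the Pdgfra gate.

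**Figure D1:**
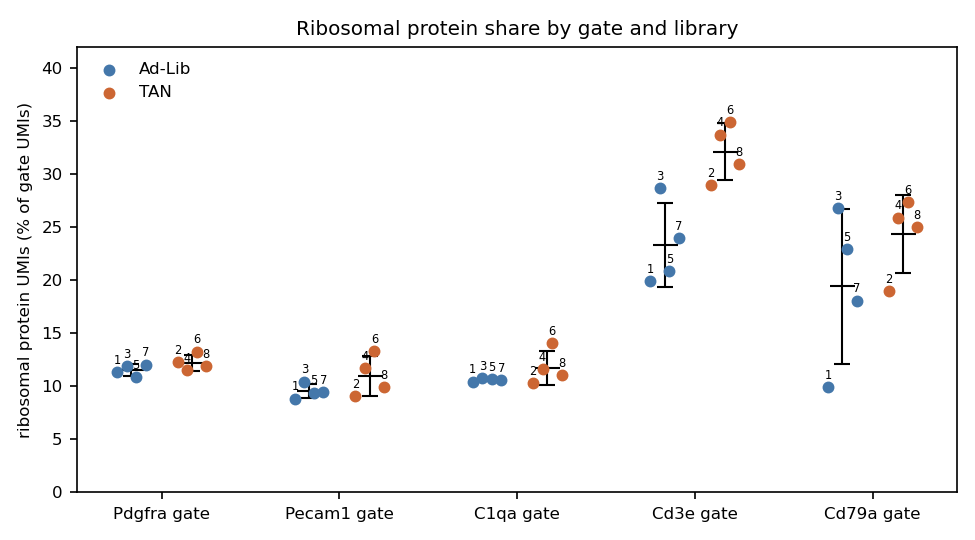
Ribosomal protein UMIs as a percentage of all UMIs of a gate (y axis) for each of the 5 gates (x axis), with 1 point per library labelled by its number, and bars for the group mean and SD (n = 4). The Ad-Lib and TAN points of the Cd3e gate do not overlap, while those of the other 4 gates do.

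The rise in lymphocytes ran through nearly the whole family. In an edgeR quasi-likelihood fit with library as a block, each gate was compared with the mean of the other 4, with p-values adjusted by Benjamini-Hochberg over 12678 genes. These comparisons share gates, so a rise in the lymphocyte gates also sets the other gates lower against their mean. In the Cd3e gate 79 of 82 members tested were higher and 1 lower, against 30.2% and 38.6% of all genes, with a median log2 difference of 1.00 beside -0.13 over all genes. In the Cd79a gate 78 were higher and 1 lower, against 24.6% and 39%, with a median of 0.67. In the Pecam1 gate 0 members were higher and 80 lower, against 40.6% and 30.1%, with a median of -0.85. In the C1qa gate 2 were higher and 72 lower, against 33.6% and 35.9%, with a median of -0.59. In the Pdgfra gate 6 were higher and 57 lower, against 45% and 34.5%, with a median of -0.29. These counts include Rpl39l, which passed the filter on low counts only through the Pdgfra gate where it is high, so that its calls, higher there and lower in the Cd79a gate, are no independent test. When samples were scaled to the genes outside the family, Rpl22l1 alone of the other members was still called higher in the Pdgfra gate (0.35 ± 0.09, log2, SE), against 39.9% of all genes. The 40S and 60S members moved alike, with medians of 1.01 and 0.98 in the Cd3e gate.

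The smallest p in the Cd3e gate belonged to Rpl27, a 60S protein (1.16 ± 0.06, log2, SE, edgeR adjusted p = 4.75e-19). The member with the largest difference there was Rpl12, a protein of the 60S stalk base, 1.57 ± 0.08 higher (log2, SE) at an edgeR adjusted p of 7.16e-19. Rpsa, the 40S protein also known as a laminin receptor, followed at 1.47 ± 0.07 (edgeR adjusted p = 5.85e-19), and Rplp0, the base of the 60S acidic stalk, stood at 1.34 ± 0.09. Rps6, the 40S protein phosphorylated by S6 kinase, was 1.02 ± 0.07 higher there and had a log2 difference of -0.75 ± 0.08 in the Pecam1 gate. In the Cd79a gate Rps27, a zinc-finger protein of the 40S subunit, led with 1.35 ± 0.08 (edgeR adjusted p = 5.25e-17). Its level was 5877 ± 2146 CPM (SD, n = 8) in the Cd79a gate and 5877 ± 1225 CPM in the Cd3e gate, against 1632 ± 164 CPM in the Pdgfra gate. Rps24 stood there at 1.20 ± 0.07. In the Pecam1 gate the smallest p values belonged to Rpl10 (-1.06 ± 0.07), Rpsa (-1.31 ± 0.09) and Rpl38, and in the C1qa gate to Rpl21 (-0.98 ± 0.07), Rpl22l1 (-1.23 ± 0.10) and Rpl15 (-0.93 ± 0.08). In the Pdgfra gate Rpl27 had a difference of -0.68 ± 0.06, and Rpl39l is described with the paralogs.

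To take out the shift of the whole family, the same contrasts were fitted with the ribosomal protein UMIs alone as the library size, so that each member was compared with the family total of its own gate. Members then split in both directions, 34 higher and 22 lower in the Pdgfra gate, 30 and 20 in the Pecam1 gate, 28 and 32 in the C1qa gate, 22 and 33 in the Cd3e gate and 24 and 40 in the Cd79a gate. On that scale the other genes of a gate shift together, so that 61.1% of all genes were higher and 20.9% lower in the Pdgfra gate, 79.2% and 6.98% in the Pecam1 gate, 61.4% and 10.2% in the C1qa gate, 7.69% and 81.6% in the Cd3e gate, and 7.98% and 74.5% in the Cd79a gate.

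Particular members made up a larger or smaller part of the family total in particular gates. The part of Rps29, a zinc-finger protein of the 40S subunit, was 0.86 ± 0.03 higher in the C1qa gate than in the other gates (log2, SE, edgeR adjusted p = 3.96e-22). In the Pdgfra gate its difference from the other gates was -0.48 ± 0.04. The level of Rps29 averaged 5250 CPM in the C1qa gate, 2675 CPM in the Pdgfra gate and 2915 CPM in the Pecam1 gate. The C1qa gate was not the highest: in the Cd3e gate Rps29 averaged 7982 CPM in cells with a UMI of Ccr7 or Lef1 and 6137 CPM in cells without. On the scale of the family total, Rplp1, a phosphoprotein of the acidic stalk, differed from the other gates by 0.58 ± 0.04 in the C1qa gate. Its difference in the Cd79a gate was -0.48 ± 0.04. Rpl9 differed by 0.51 ± 0.03 in the Pecam1 gate, and Rps2 by 0.51 ± 0.04 in the Pdgfra gate. Rpl10 joins the 60S subunit at the last step of its assembly. It differed by 0.63 ± 0.05 in the C1qa gate, 0.50 ± 0.05 in the Pdgfra gate and -0.56 ± 0.06 in the Cd3e gate. Many of these genes have processed pseudogenes of near-identical sequence, and one such copy, Rps27rt, is counted on its own here, so that how reads were split between copies is uncertain for them.

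**Figure D2:**
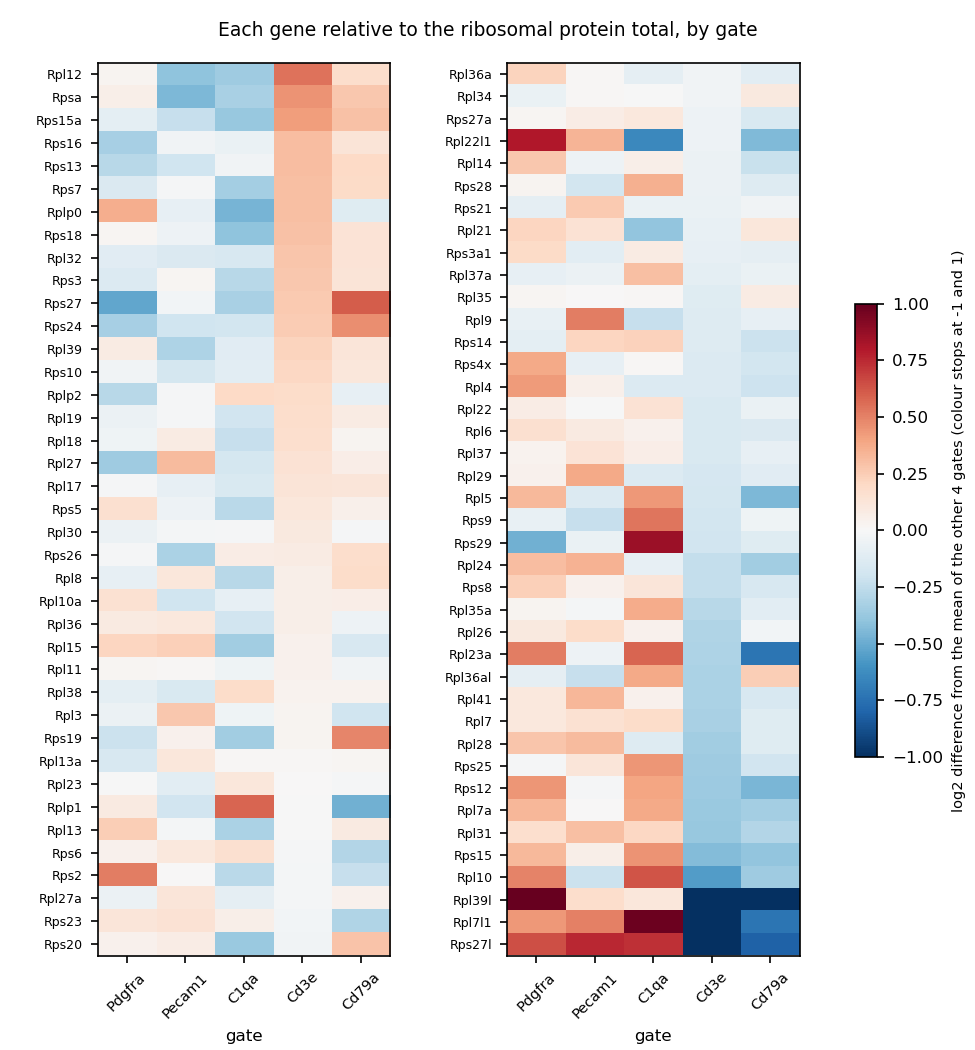
Of the 82 members tested, 79 (rows, ordered by the Cd3e-gate value) against the ribosomal protein total of the gate, as the log2 difference between a gate (columns) and the mean of the other 4. Red marks higher and blue lower values, and colours stop at -1 and 1. Rps27l is low in both lymphocyte gates, Rps29 and Rplp1 are high in the C1qa gate and Rps27 is high in the Cd79a gate.

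Paralogs that end in l are variant copies of core ribosomal proteins, several of which can take the place of the partner in the ribosome. One of them was Rpl39l, the paralog of the 60S exit-tunnel protein Rpl39 that is best known from male germ cells (chr16:10170226-10174911, plus strand). In the Pdgfra gate it had 12.5, 13.0, 12.5 and 16 CPM in Ad-Lib 1, 3, 5 and 7 and 10.9, 14, 10.3 and 13.5 CPM in TAN 2, 4, 6 and 8, from 973 UMIs in all. The highest library had 2.10 CPM in the Pecam1 gate, 2.47 CPM in the C1qa gate and 8.63 CPM in the Cd3e gate, all below the lowest of the Pdgfra gate. Behind these values were 50 UMIs in the Pecam1 gate, 38 in the C1qa gate, 20 in the Cd3e gate and 3 in the Cd79a gate. Its partner Rpl39 had 1642 ± 161 CPM (SD, n = 8) in the Pdgfra gate, a log2 difference of -0.24 ± 0.08 from the other gates, and it was highest in the Cd3e gate at 4126 ± 869 CPM.

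Rpl22l1 and its partner Rpl22, a pair of RNA-binding 60S proteins of which Rpl22 is needed for the development of alphabeta T cells, were ordered differently among the gates. Rpl22l1 (chr3:28805436-28807424, plus strand) had 820 ± 195 CPM (SD, n = 8) in the Cd3e gate, 558 ± 55.5 CPM in the Pdgfra gate, 527 ± 186 CPM in the Cd79a gate, 370 ± 41.4 CPM in the Pecam1 gate and 237 ± 30.7 CPM in the C1qa gate. The Pdgfra and Cd79a gates, neighbours in that order, did not differ beyond their spread. Scaled to the ribosomal protein total, Rpl22l1 was 0.80 ± 0.06 higher in the Pdgfra gate than in the other gates (log2, SE, edgeR adjusted p = 8.84e-14). Its difference in the C1qa gate was -0.64 ± 0.07. Rpl22 differed less between the gates on that scale, from -0.15 ± 0.04 in the Cd3e gate to 0.14 ± 0.04 in the C1qa gate.

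Rps27l, the paralog of Rps27 that is induced by p53 (chr9:66946086-66949516, plus strand), was ordered differently from its partner. It had 252 ± 24.6 CPM (SD, n = 8) in the Pdgfra gate, 249 ± 32.1 CPM in the C1qa gate, 232 ± 8.47 CPM in the Pecam1 gate, 204 ± 40.8 CPM in the Cd79a gate and 199 ± 34.5 CPM in the Cd3e gate, and neighbours in this order overlapped. In the Cd3e gate it was the 1 member lower than in the other gates, by a log2 difference of -0.30 ± 0.11 (edgeR adjusted p = 0.0132), while Rps27 was 1.28 ± 0.08 higher. Rpl7l1, a nucleolar factor in the assembly of the 60S subunit, likewise did not share the rise: its Cd3e-gate difference was -0.08 ± 0.08, against 0.70 ± 0.07 for Rpl7, and it was 0.36 ± 0.07 higher in the C1qa gate (edgeR adjusted p = 1.51e-05). Rpl36al and Rpl36a, which encode nearly the same protein, were both higher in the Cd3e gate, by 0.72 ± 0.11 and 1.00 ± 0.08. Rpl3l, the muscle paralog of Rpl3, had 1 UMI in the Pdgfra gate, 2 in the Pecam1 gate and 0 in the others, and the testis gene Rpl10l had 0 UMIs in each gate.

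**Figure D3:**
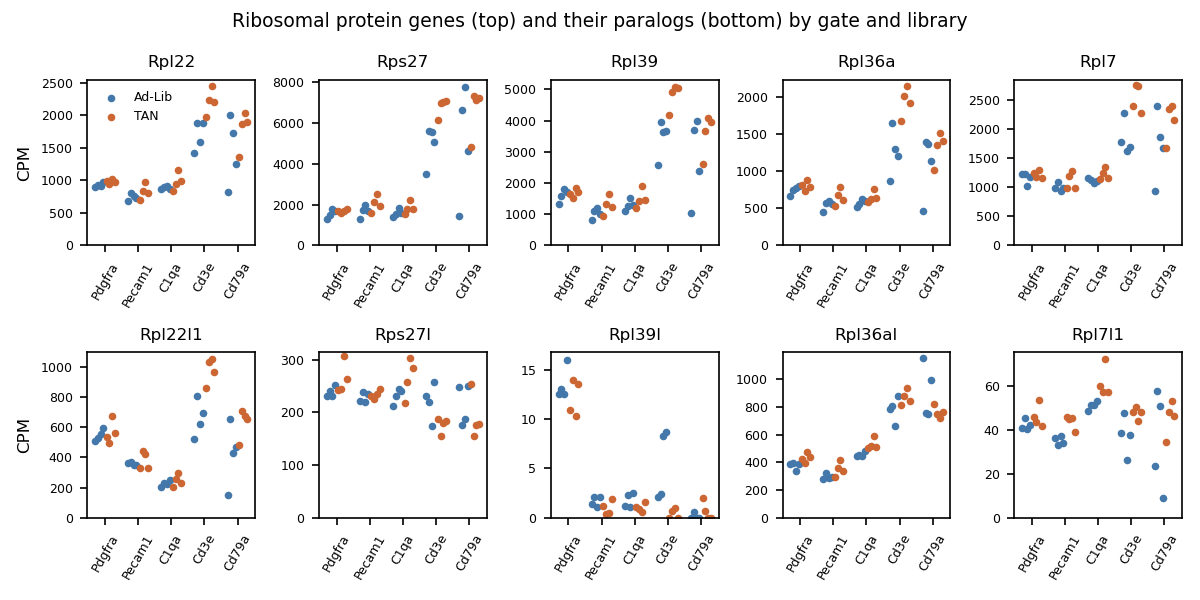
Level in CPM (y axis, from 0, with its own scale in each panel) of 5 ribosomal protein genes (top row) and their paralogs (bottom row) in the 5 gates (x axis), with 1 point per library. The top row is highest in the lymphocyte gates, while Rpl39l is highest in the Pdgfra gate and Rps27l is lowest in the lymphocyte gates on average.

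The feeding comparison asked whether nightly restricted feeding changed the family within a lineage. Mitochondrial transcripts separated the groups over whole libraries, with medians per cell of 1.77% to 2.48% in Ad-Lib and 2.76% to 3.83% in TAN before the limit on them. In the gates their share of the UMIs separated the groups in the Cd3e and Pecam1 gates and overlapped in the Pdgfra, C1qa and Cd79a gates, and apart from the denominator of the share its part in the results below was not tested. The T cells showed a separation in ribosomal protein share. The share in the Cd3e gate was 19.9%, 28.7%, 20.9% and 24% in Ad-Lib 1, 3, 5 and 7 and 29.0%, 33.7%, 34.9% and 31.0% in TAN 2, 4, 6 and 8. The groups did not overlap, but the libraries Ad-Lib 3 and TAN 2 were neighbours, and the means were 23.4% ± 3.95 and 32.1% ± 2.69 (SD, n = 4). With the mean over cells in place of the summed UMIs the groups overlapped, with 22.5% ± 4.19 in Ad-Lib and 31.0% ± 2.88 in TAN (SD, n = 4), and they overlapped in cells of 2000 to 10000 UMIs.

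Gene by gene, 8 of 81 members tested in the Cd3e gate were called higher in TAN and 0 lower (edgeR quasi-likelihood, Benjamini-Hochberg adjusted p under 0.05 over 7550 genes), against 1.43% and 4.12% of all genes. Of the 8, 5 were also at least 1.5-fold higher, against 1.15% of all genes. Values of 40 of the 81 lay wholly above the Ad-Lib values, against 3.34% of all genes, 80 of 81 had a log2 change above 0, and 77 of 81 had an unadjusted p under 0.05, against 21.5% of all genes. The median log2 change was 0.57 over the members and 0.00 over all genes, and it was 0.59 for the 40S and 0.54 for the 60S members. Without a TMM factor the median of all genes moved to -0.12 and that of the members to 0.45, with 6 members called higher, against 0.795% of all genes.

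Rpl22l1 had 521, 808, 622 and 693 CPM in Ad-Lib and 863, 1031, 1053 and 968 CPM in TAN, with a log2 change of 0.69 ± 0.16 (edgeR adjusted p = 0.0294). Its partner Rpl22 changed by 0.52 ± 0.15 and missed the threshold (edgeR adjusted p = 0.0595).

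Rps28, a small 40S protein at the mRNA exit, had 1944, 2964, 2902 and 3055 CPM in Ad-Lib and 3351, 3931, 4175 and 4268 CPM in TAN (log2 change 0.67 ± 0.16 SE, edgeR adjusted p = 0.0329). Ad-Lib 1 was the lowest library for it, as for the other called members. Rps26, which contacts the mRNA next to the exit channel, had 1608, 2345, 1753 and 2114 CPM in Ad-Lib and 2397, 2978, 3274 and 2967 CPM in TAN (log2 change 0.69 ± 0.17, edgeR adjusted p = 0.034). Ad-Lib 3 and TAN 2 were again neighbours. Rpl36a, a 60S protein next to the tRNA exit site, had 872, 1652, 1299 and 1208 CPM in Ad-Lib and 1679, 2014, 2144 and 1913 CPM in TAN (log2 change 0.74 ± 0.19, edgeR adjusted p = 0.0412), with the same pair of libraries side by side. Rpl5, Rpl35 and Rpl23a were also called. Rpl5 carries 5S ribosomal RNA with Rpl11, and its log2 change was 0.53 ± 0.14 (edgeR adjusted p = 0.0417).

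Other members named for their roles had changes of similar size that missed the threshold, with log2 changes of 0.73 ± 0.23 for Rplp0, 0.61 ± 0.18 for Rps6, 0.60 ± 0.20 for Rpsa and 0.60 ± 0.18 for Rps27. Rps27l had a log2 change of -0.20 ± 0.14 (edgeR adjusted p = 0.457), with 155 to 188 CPM in TAN and 175 to 259 CPM in Ad-Lib. Rpl39l, below the filter on low counts with 20 UMIs in the gate, had 2.13 to 8.63 CPM in Ad-Lib and 0 to 1.02 CPM in TAN. Rpl36al changed by 0.28 ± 0.14 and Rpl10 by 0.31 ± 0.17, and neither passed.

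The number of members called rested on single libraries. Without Ad-Lib 3 it was 79 of 81, where 6.93% of all genes were called higher. Without TAN 2 it was 18 (2.17% of all genes) and without TAN 8 it was 1 (0.722%). Without Ad-Lib 1, Ad-Lib 5, Ad-Lib 7, TAN 4 or TAN 6 it was 0, with 0.143% to 0.484% of all genes called higher. DESeq2 on the same sums called 56, against 2.23% of all genes, and a gate of at least 2 Cd3e UMIs called 44, against 2.22%. Cells of 2000 to 10000 UMIs gave 0 calls, against 0.305%, with a median log2 change of 0.59.

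**Figure D4:**
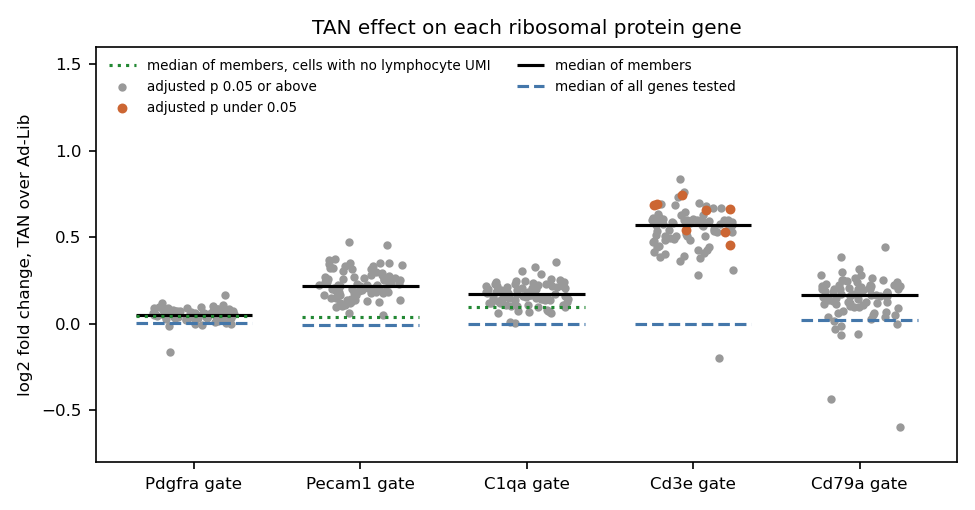
The log2 fold change of each tested ribosomal protein gene between TAN and Ad-Lib (y axis) in each gate (x axis), with 1 point per gene, coloured where the edgeR adjusted p is under 0.05. Solid lines are medians of the members, dashed lines medians of all genes tested, and dotted lines medians of the members in cells with no lymphocyte UMI. The Cd3e-gate points centre on 0.57, and the dotted line of the Pecam1 gate lies at 0.04 where its solid line lies at 0.22.

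The makeup of the Cd3e gate moved together with these values. Cells with a UMI of Ccr7 or Lef1, genes of naive and central memory T cells that circulate through lymphoid organs, were 16%, 52.6%, 22.1% and 23.6% of the gate in Ad-Lib 1, 3, 5 and 7. They were 53.0%, 71.1%, 74.0% and 70.5% in TAN 2, 4, 6 and 8. This pair of genes was chosen after seeing the data. Ad-Lib 3 and TAN 2 were thus neighbours by this measure as they were by ribosomal protein share. The 5 naive markers together, all of them detected in each library, summed to 201 to 793 CPM in Ad-Lib and 705 to 1184 CPM in TAN. The 6 resident or effector markers summed to 4052 to 5844 CPM in Ad-Lib and 1562 to 4570 CPM in TAN. RNA of other lineages differed as well: the 6 fibroblast markers summed to 955, 472, 106 and 644 CPM in Ad-Lib and 38.3, 28.4, 97 and 63 CPM in TAN, and the 6 macrophage markers to 24.7 to 138 CPM in Ad-Lib and 11.4 to 21.7 CPM in TAN. The 6 T cell markers summed to 3027 to 3620 CPM in Ad-Lib and 3852 to 4045 CPM in TAN. The study's methods state that lymph nodes were left out of the dissected fat. By single-cell RNA-seq the study reported a larger percentage of T cells in TAN, while its flow cytometry found similar T and B cell percentages in both groups. Mitochondrial transcripts also differed, at 2.08% to 2.70% of the UMIs in Ad-Lib and 2.91% to 3.6% in TAN, a difference shared by the whole libraries as given above. With mitochondrial UMIs left out of the denominator, the difference in ribosomal protein share between the group means was 9.28 percentage points in place of 8.78.

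Within each library, cells of the Cd3e gate with a naive-type UMI had the larger ribosomal protein share in 8 of 8 libraries, by 0.63 to 12.1 percentage points. This subset had 20.5%, 34.2%, 23.3% and 28.3% in Ad-Lib (12, 130, 21 and 13 cells) and 33.5%, 36.2%, 36.8% and 33.2% in TAN (70, 359, 602 and 158 cells). Cells without such a UMI had 19.8%, 22.1%, 20.2% and 22.6% in Ad-Lib (63, 117, 74 and 42 cells) and 22.8%, 26.9%, 28.0% and 23.8% in TAN (62, 146, 212 and 66 cells). The groups overlapped in the naive-type cells, while in the others Ad-Lib 7 and TAN 2 lay next to each other without overlap. The difference between the means of TAN and Ad-Lib was 8.39 percentage points with and 4.23 without a naive-type UMI, beside 8.78 in the whole gate. Among the members, 42 of 81 were higher in CPM in the naive-type cells in 8 of 8 libraries and 0 lower, against 2.04% and 6.4% of all genes. Rpl36a, 1 of the 42, averaged 1839 ± 479 CPM (SD, n = 8) with and 1227 ± 233 CPM without a naive-type UMI. Rps28 averaged 3773 ± 864 CPM with and 2643 ± 450 CPM without and was higher in 7 of 8 libraries, Ad-Lib 1 being the exception. Rps27l averaged 173 ± 54.4 CPM with and 228 ± 46.9 CPM without. A cell with more UMIs is more likely to show either gene, and depth differed between the subsets, at library medians of 4563 to 6350.5 UMIs with and 4498 to 5259 without.

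Between TAN and Ad-Lib, 0 members were called within either subset by edgeR. Of all genes 0.427% were called in the naive-type cells, 0% higher in TAN, and 0.767% in the others, 0.236% higher. There were 43 of 81 at an unadjusted p under 0.05 in the naive-type cells, against 9.31% of all genes, and 50 of 81 in the other cells, against 12%. The median log2 change of the members was 0.51 in the naive-type cells and 0.31 in the others. How much of the difference in the whole gate comes with its makeup was not tested.

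**Figure D5:**
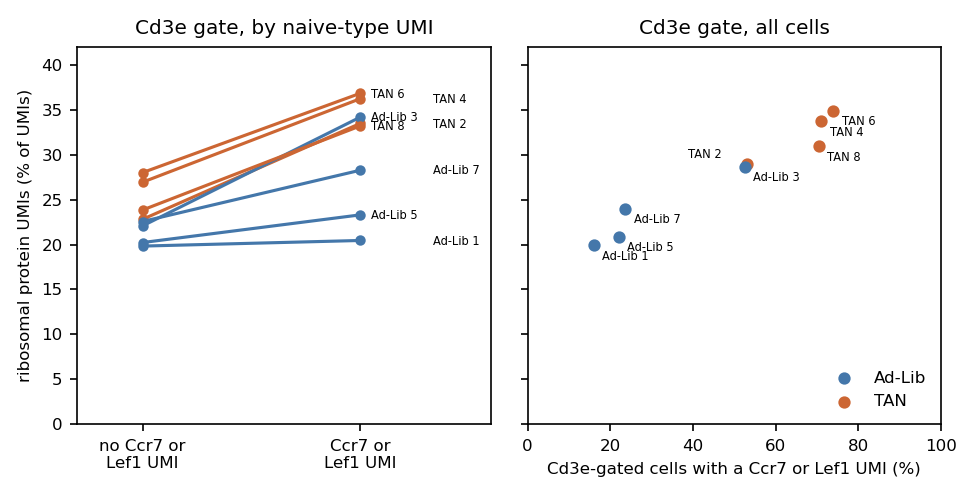
Ribosomal protein UMIs as a percentage of all UMIs in the Cd3e gate (y axis of both panels), with 1 line or point per library. The left panel splits cells by a UMI of Ccr7 or Lef1 and each line climbs, and the right panel sets the whole gate against the percentage of its cells with such a UMI (x axis), where Ad-Lib 3 and TAN 2 lie side by side.

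In the Pdgfra gate the share was 11.4%, 11.9%, 10.9% and 12% in Ad-Lib and 12.3%, 11.5%, 13.3% and 11.9% in TAN. The groups overlapped, and 0 of 82 members were called in either direction by edgeR, against 0.471% of all genes higher and 0.959% lower. At an unadjusted p under 0.05 there were 0 members, against 14.1% of all genes. Log2 changes of the members lay between -0.16 (Rpl39l) and 0.17 (Rpl36al) with a median of 0.05. Of the 82, 78 were above 0, but 38 were without Ad-Lib 5, the library with the lowest share. The standard error of the change was 0.09 for Rps6 and 0.07 for Rpl22 on the log2 scale.

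In the Pecam1 gate the share was 8.85%, 10.5%, 9.42% and 9.48% in Ad-Lib and 9.08%, 11.7%, 13.3% and 9.93% in TAN, with TAN 6 and TAN 4 highest and TAN 2 and TAN 8 inside the Ad-Lib range. By edgeR 0 of 81 members were called, against 0.795% of all genes higher and 1.08% lower. An unadjusted p under 0.05 was found for 10 of 81 members and for 17% of all genes. The 81 members had log2 changes above 0, with a median of 0.22. Rpsa changed most, by 0.48 ± 0.19 (edgeR adjusted p = 0.238), with 901, 1127, 848 and 932 CPM in Ad-Lib and 911, 1446, 1771 and 1083 CPM in TAN. Rpl7l1 came nearest to the threshold, with 36.1, 33.1, 37.2 and 33.9 CPM in Ad-Lib and 45.6, 44.8, 45.3 and 38.9 CPM in TAN, values that did not overlap (log2 change 0.35 ± 0.09, edgeR adjusted p = 0.084). It passed when TAN 8 was left out (edgeR adjusted p = 0.0419).

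Mitochondrial transcripts were 2.03% to 2.57% of the UMIs of this gate in Ad-Lib and 2.83% to 3.46% in TAN. T cell transcripts moved with these endothelial values as well. The 6 T cell markers summed to 9.61, 107, 29.9 and 15.5 CPM in Ad-Lib and 38.4, 296, 496 and 85.4 CPM in TAN, with Cd3e itself absent by the gate's rule. Cells with any UMI of the lymphocyte genes made up 1.78%, 4.1%, 1.58% and 1.51% of the gate in Ad-Lib and 2.02%, 8.92%, 20.97% and 5.32% in TAN. In the cells with no such UMI the share was 8.71%, 9.56%, 9.10% and 9.33% in Ad-Lib and 8.84%, 9.50%, 9.56% and 9.11% in TAN. The groups overlapped as before, the difference of means went from 1.46 to 0.08 percentage points, and the median log2 change of the members went from 0.22 to 0.04. The lymphocyte genes for this were chosen after seeing the data. With at least 2 Pecam1 UMIs per cell the difference of means was 0.52. How much of these values comes with T cell RNA was not tested further.

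In the C1qa gate the share was 10.5%, 10.8%, 10.7% and 10.6% in Ad-Lib and 10.3%, 11.6%, 14% and 11.1% in TAN. By edgeR 0 of 81 members were called, against 0.0776% of all genes higher and 0.0873% lower. An unadjusted p under 0.05 was found for 8 of 81 members and for 13% of all genes. The median log2 change of the members was 0.17, and the highest was that of Rps19 at 0.36 ± 0.13 (edgeR adjusted p = 0.254). Cells with a lymphocyte UMI made up 1.37% to 2.97% of the gate in Ad-Lib, 1.78%, 5.38% and 4.55% in TAN 2, 4 and 8, and 22.7% in TAN 6. Rpl7l1 came nearest to the threshold here too (0.29 ± 0.09, edgeR adjusted p = 0.183), with 48.5, 51, 51.4 and 52.9 CPM in Ad-Lib and 59.9, 57, 72.1 and 57.2 CPM in TAN. Without the cells with a lymphocyte UMI the share of TAN 6 went from 14% to 12.2%, the difference of means from 1.14 to 0.64 percentage points and the median log2 change to 0.10. In the Pdgfra gate the same step changed the difference of means from 0.70 to 0.64.

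In the Cd79a gate the share was 9.90%, 26.8%, 22.9% and 18.1% in Ad-Lib and 19.0%, 25.9%, 27.4% and 25% in TAN. The groups overlapped, and 0 of 81 members were called by edgeR, against 0% of all genes in each direction. At an unadjusted p under 0.05 there were 0 members, against 2% of all genes. The libraries with the lowest shares, Ad-Lib 1, Ad-Lib 7 and TAN 2, had 77780, 24140 and 34762 CPM of Ighm and 21, 20 and 86 cells. The difference of means was 4.91 percentage points, and it turned to -0.52 without Ad-Lib 1 and Ad-Lib 7, when the median log2 change of the members was 0.04 in place of 0.17. That pair had the lowest Ad-Lib shares and TAN 2 was kept, so leaving the pair out could only lower the difference in share and decides nothing. Rpl22l1 had the highest change, 0.45 ± 0.22 (edgeR adjusted p = 1), and Rpl36al the lowest, -0.59 ± 0.33.

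Whether the TAN effect differed between the gates was tested as an interaction of group and gate, with library as a block. The test called 31 of 82 members (edgeR adjusted p under 0.05 over 12678 genes), against 3.22% of all genes. For each of the 31, the effect in the Cd3e gate lay above that in the Pdgfra gate, with a median gap of 0.63 on the log2 scale. The effects in the Pecam1, C1qa and Cd79a gates had median gaps of 0.17, 0.07 and 0.23 to the Pdgfra gate over the same 31. Rps20, a protein of the 40S head, had the smallest p, with an effect 0.83 larger in the Cd3e gate than in the Pdgfra gate (edgeR adjusted p = 0.0162). Its Cd3e-gate values were 3917, 6829, 3781 and 5017 CPM in Ad-Lib and 6690, 8271, 8486 and 7146 CPM in TAN, so that Ad-Lib 3 exceeded TAN 2. Rpl35 had a gap of 0.73 (edgeR adjusted p = 0.0182) and Rpl36a of 0.76 (edgeR adjusted p = 0.0203). Without Ad-Lib 3 the test called 73 members, against 7% of all genes, and without TAN 2 it called 32, against 5.28%. It called 0 members and 0.503% to 1.88% of all genes without any 1 of the other 6 libraries.

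Other genes of translation were followed in lists. In the Cd3e gate all 5 elongation factors were higher than in the other gates, with Eef1a1 at 0.70 ± 0.06 (log2, SE), and of the 24 genes of ribosome assembly 19 were higher and 0 lower, among them the nucleolar chaperone Npm1 (1.25 ± 0.09), beside the 30.2% higher and 38.6% lower of all genes. In the Pecam1 gate 5 of 5 and 21 of 24 of these lists were lower, beside 30.1% of all genes. Initiation factors were mixed, 12 higher and 3 lower of 23 in the Cd3e gate and 2 higher and 15 lower in the Pecam1 gate. Of 78 genes of the mitochondrial ribosome, 45 were higher and 3 lower in the Cd3e gate, with a median of 0.27, and 6 higher and 58 lower in the C1qa gate, with a median of -0.36, where 33.6% of all genes were higher and 35.9% lower.

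Between TAN and Ad-Lib, the Cd3e gate had 0 of 5 elongation factors and 0 of 23 initiation factors called, beside the 1.43% higher and 4.12% lower of all genes. Of the 24 ribosome assembly genes 4 were higher and 0 lower. They were the methyltransferase gene Fbl (0.57 ± 0.14), the pseudouridine synthase gene Dkc1 (0.80 ± 0.16, edgeR adjusted p = 0.0158), Gnl3, which encodes nucleostemin (0.78 ± 0.19), and Nop10 (0.61 ± 0.15). Of 75 mitochondrial ribosomal protein genes tested 2 were higher, Mrpl24 and Mrps5. Among the 12 tested regulators of terminal oligopyrimidine messages, 1 was lower and 0 higher: Eif4ebp1, which encodes an inhibitor of cap-dependent translation under mTORC1, went from 36.1 ± 6.88 to 17.6 ± 4.86 CPM (SD, n = 4, log2 change -0.92 ± 0.22, edgeR adjusted p = 0.031).

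In the Pecam1 gate Nop10 was higher in TAN (92.1 ± 6.24 against 126 ± 10.9 CPM, SD, n = 4, edgeR adjusted p = 0.0257). Of the 14 regulators 1 was lower there, against 1.08% of all genes. It was Ddit4, a stress-induced inhibitor of mTORC1, which fell from an Ad-Lib mean of 60.6 ± 10.5 CPM to a TAN mean of 25.5 ± 2.65 CPM (SD, n = 4, log2 change -1.20 ± 0.13, edgeR adjusted p = 0.00117). The elongation, initiation and mitochondrial ribosome lists had 0 genes called there. The part of T cell RNA in these Pecam1-gate values was not tested. In the Pdgfra, C1qa and Cd79a gates all of the lists had 0 genes called. Of all genes 0.471% were higher and 0.959% lower in the Pdgfra gate, 0.0776% and 0.0873% in the C1qa gate, and 0% in each direction in the Cd79a gate.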

How the data were processed

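The deposited files are whole-number UMI counts per gene and cell barcode, made by the authors with Cell Ranger (3.0.2 in the submitters' processing notes, 6.0.1 in the file headers) on mm10/GRCm38, 1 filtered matrix per library. Replicates were not pooled. Cells with 700 to 30000 UMIs, 200 to 8000 genes and at most 10% mitochondrial UMIs were kept. No doublet caller was run, and cells with markers of more than 1 gate were left out. Gates needed at least 1 marker UMI, and UMIs were summed per library and gate, with the library as the replicate. Sums had at least 10 cells. CPM are a gene's UMIs divided by the summed UMIs of its library and gate, on the usual scale, and no p is given for a share.

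Tests used edgeR 4.0.16 (glmQLFit and glmQLFTest in R 4.3.3, filterByExpr, TMM, Benjamini-Hochberg over all genes tested) and DESeq2 1.42.0 as an alternative. On simulated counts with 200 genes changed 2-fold, 54.5% were recovered in the Cd3e gate (7690 genes) for TAN against Ad-Lib, 68% in the Pdgfra gate (12170 genes), 9% in the interaction test (12815 genes) and 100% in the contrast between gates (12318 genes). Of the genes called, 4.39%, 8.72%, 0% and 2.44% were false in that order. The simulation held the dispersion fixed and left out differences in makeup between libraries and changes below 2-fold, so it does not give the power for the results above. The members and lists were chosen with earlier results of these data known. Named members were, per gate, the 5 called members with the smallest adjusted p whose groups do not overlap, up to 3 called against the majority, the paralogs ending in l with their partners, Rplp0, Rps6, Rps26 and Rpsa, and up to 3 by the interaction and gate contrasts. Some genes and 1 gene list that these rules reach are not reported here, and the T cell subsets were split by Ccr7 or Lef1 in place of the planned split. Rpl5, Rpl23a, Rps19, Rps29, Rplp1, Rpl9 and Rps2 were named after their values were seen. Alternatives were the gate, the cell filters, the scaling, the filter on low counts, the tool and each library left out.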

Additional observations from a re-analysis of the deposited data

Results flagged for a closer look

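In the Cd3e gate, Ad-Lib 1 stood apart from the other 3 Ad-Lib libraries for Rps28 (1944 CPM), by a test for a single outlying value in a group of 4 (the gap to the nearest library over the range, against Dixon's limit). Of 18 such groups examined, chance flags about 1 in 20. Ad-Lib 1 held 75 cells of this gate.

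The TAN effect differed between gates by the interaction test for 31 of 82 members, against 3.22% of all genes. The test called 0 members without Ad-Lib 1, Ad-Lib 5, Ad-Lib 7, TAN 4, TAN 6 or TAN 8. Among the named members, the effect in the Cd3e gate exceeded that in the Pdgfra gate by 0.83 (Rps20), 0.73 (Rpl35), 0.76 (Rpl36a), 0.76 (Rpl22l1), 0.64 (Rpl7), 0.60 (Rpl3), 0.63 (Rps4x) and 0.72 (Rps26) on the log2 scale.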

How the results depend on the processing

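Members called in the Cd3e gate (8, all higher in TAN) became 56 with DESeq2, 44 with at least 2 marker UMIs, 73 with no filter on low counts (72 higher and 1, Rpl39l, lower, against 6.82% of all genes called), and 0 in cells of 2000 to 10000 UMIs and in the cells with or without a Ccr7 or Lef1 UMI, a split chosen after seeing the data in place of the planned one. Leaving out 1 library gave 0 to 79. In the Pecam1 gate leaving out 1 library gave 0 to 1, against 0, and the 1, without TAN 8, stood beside 1.58% of all genes called. The interaction count (31) became 17 with no filter on low counts, beside 3.45% of all genes, and ranged from 0 to 73 with 1 library left out. The difference in share moved beyond 1 SD of the libraries in the Cd3e gate in cells with no Ccr7 or Lef1 UMI (4.23 percentage points). Leaving out 1 library gave differences of 7.63 to 10.6 points in the Cd3e gate, 0.69 to 2.10 in the Pecam1 gate, 0.37 to 1.63 in the C1qa gate, 0.36 to 0.93 in the Pdgfra gate and 1.74 to 7.36 in the Cd79a gate. The cause of each change was not tested. The other alternatives kept each count of members, both directions together, within 1.5 times, but members higher in the Pdgfra gate than in the other gates went from 6 to 2, Rpl39l included, when scaled to genes outside the family, and no called result of a named member changed direction under the alternatives run. Changes that were not called could: in the Pdgfra gate members above 0 went from 78 to 38 of 82 without Ad-Lib 5. For the 4 members named in the TAN comparison 32 alternatives kept the call and 36 lost it, for the 8 in the interaction 28 kept and 52 lost it, and for the 78 differences between gates 682 kept and 20 lost it. No paired analysis was possible because the groups share no replicate numbers. Depth limits the values of the Cd79a gate, with 20 cells in Ad-Lib 7, and of Rpl39l outside the Pdgfra gate.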

Other observations

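Some features outside the naming rule carry reads of the same families. Rps27rt, a retrotransposed copy of Rps27, had 34.9 ± 5.5 CPM (SD, n = 8) in the Pdgfra gate, 40.4 ± 9.07 in the Pecam1 gate, 39.5 ± 5.21 in the C1qa gate, 127 ± 46.3 in the Cd3e gate and 135 ± 69.0 in the Cd79a gate. Rpl9-ps6 had 17.4 ± 2.57 CPM in the Pdgfra gate and 40.5 ± 12.2 CPM in the Cd3e gate. Reads of such copies and of their parents cannot be told apart with certainty in these counts.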
